A study of Mus musculus with 4 samples.

Results

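Clusters 11, 14 and 15 of the MoMacDC bundle were small groups of splenic CD11b+ cells that carried neutrophil transcripts, although the bundle had been assembled from monocytes, macrophages and dendritic cells (DCs) with the granulocytes left out. The cells were chosen by the cluster number that the authors deposited for the bundle, and they numbered 316 of the 6075 bundle cells and of 11631 cells in all. The steady-state library held 199 of them (157 in cluster 11, 35 in cluster 14 and 7 in cluster 15), and the GM-CSF library held 117 (77, 7 and 33). The spleens came from C57BL/6 mice of 8 to 12 weeks, either untreated or given 10 µg of GM-CSF under the skin once daily on 3 days, with cells taken 24 h after the last dose. GM-CSF is a cytokine that acts on monocytes, granulocytes and DCs. All cells of both groups had been sorted for CD11b, an integrin of myeloid cells, and were profiled by CITE-seq, which counts RNA molecules by unique molecular identifiers (UMIs) and surface proteins by antibody-derived tags in the same droplets. With 1 library per condition, the effect of GM-CSF and the library cannot be told apart, no test between conditions was made, and intervals cover counting error only.

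Neutrophils are short-lived granulocytes that leave the bone marrow with granules already filled. Their granule proteins are made in order, the primary granule enzymes (Elane, Prtn3, Mpo) in early precursors, the specific granule proteins (Ltf, Camp, Ngp) in the next stages, and Cxcr2, Csf3r and Il1b are high in mature cells. S100a8 and S100a9 encode the subunits of calprotectin and are the most abundant neutrophil transcripts, while classical monocytes also make them at lower levels. In droplet methods a barcode names a droplet, so cells caught together are read as a single profile, and free RNA adds a few UMIs to any droplet. The measurements below were chosen because they bear on whether the neutrophil genes came with a second cell in the droplet or from a state of the monocyte itself, and no count of cells per droplet is held in the tables analysed here.

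The steady-state library had 22,358,903 UMIs in 4827 cells and the GM-CSF library 35,007,567 UMIs in 6804 cells. Both libraries shared 8 cell barcodes, 1 of them of a cell in clusters 11, 14 or 15. Of the cells that the authors named in the table of all CD11b+ cells, 1929 Granulocyte and 146 Neutrophil cells were in the steady-state library, and 1791 and 893 in the GM-CSF library. The Granulocyte label had the transcripts of mature cells and the Neutrophil label those of the specific granules, as described below, and both names are used here as deposited.

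The clusters made up 9.32% (95% exact binomial interval 8.12 to 10.6) of the bundle in the untreated library. In the GM-CSF library they made up 2.97% (2.46 to 3.55). Cluster 11 held 7.35% of the steady-state and 1.95% of the GM-CSF bundle cells. Cluster 14 held 1.64 and 0.178%. Cluster 15 went the other way, with 0.328 and 0.838%. In the table of all cells, the labels of these droplets were spread over several bundle types. Cluster 11 in steady state was 61.1% MoMacDC_c1 and 31.8% MoMacDC_c5, and after GM-CSF it was 64.9% MoMacDC_c2 and 28.6% MoMacDC_c1. Of cluster 14, 29 of 35 steady-state cells and 7 of 7 GM-CSF cells were labelled Progenitor DC. Of cluster 15 in the GM-CSF library, 26 of 33 cells were MoMacDC_c2. The authors assigned 21 steady-state and 22 GM-CSF cells of the clusters to their CD115hi subsets or the CD115hi remainder.

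S100a8 lies on chromosome 3 at 90668978 to 90670035 (plus strand) and S100a9 at 90692632 to 90695721 (minus strand) of GRCm38, the build also called mm10. S100a8 averaged 61.3 UMIs per cell in cluster 11, 75.5 in cluster 14 and 872 in cluster 15 in steady state, where the other bundle clusters averaged 0.847. After GM-CSF the S100a8 means were 85.4, 42.4 and 569, against 1.43 in the other bundle clusters. S100a9 averaged 82.8, 106 and 1079.6 UMIs per cell in steady state and 102, 57.3 and 699.8 after GM-CSF, against 1.01 and 1.71. At least 98.1% of the cells of each cluster had an S100a8 UMI in either library, against 32.4 and 39.4% of the other bundle cells. S100a8 was thus detected in nearly every droplet, at amounts that varied between cells, and cluster 15 stood well above clusters 11 and 14, as the Neutrophil label did above the Granulocyte label. The Granulocyte cells averaged 80.4 (steady state) and 49.4 (GM-CSF) UMIs of S100a8 per cell, and the Neutrophil cells 923 and 499.7.

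The other genes that the study printed for these clusters followed the same pattern. They were Cxcr2, a chemokine receptor, Csf3r, the G-CSF receptor, Mmp9, a gelatinase, Hdc, which makes histamine, Slpi, a protease inhibitor, Mxd1, a MYC antagonist, and Il1b, a cytokine. With S100a8 and S100a9 they made 9 genes, chosen by the authors on these same cells. Their summed level in CPM (the UMIs of a gene in a group of cells, scaled to the same total in every group) was 41.1 times (interval 40.2 to 42.0) that of the other bundle clusters in steady state and 107 times (105 to 109) after GM-CSF. All 9 were at least 2-fold higher in both libraries, where 3.52% (steady state) and 5.17% (GM-CSF) of all genes compared were. The clusters had been made from these transcripts, so the counts describe the clusters and test nothing. Cxcr2 had a CPM of 554 in the clusters and 6.96 outside them in steady state, and 238 and 3.18 after GM-CSF. Csf3r showed the smallest ratio of the 9 in steady state (6.40, interval 6.01 to 6.80), since other bundle cells in that library had 170.1 CPM of it.

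Of the list of 18 mature neutrophil genes, 17 had the 50 UMIs needed for comparison in each library. In both, 17 of 17 were at least 2-fold higher than in the other bundle clusters, where 3.52 and 5.17% of all genes were. The list shares S100a8, S100a9, Cxcr2, Csf3r, Mmp9, Hdc, Slpi and Mxd1 with the printed genes. The clusters had been made from such transcripts, so this count too describes them and tests nothing. The median log2 difference of the listed genes was 5.71 in steady state and 5.63 after GM-CSF, and the median of all genes was -0.09 and -0.10. Per cell the list gave a median of 156 UMIs in cluster 11, 204 in cluster 14 and 1622 in cluster 15 in steady state, and 125, 108 and 1287 after GM-CSF. The other bundle clusters had a median of 3 and 1 UMIs and the B cells, which do not express these genes, 1 and 1. Granulocyte cells had 212 and 96 and Neutrophil cells 1840 and 1050.0. The lowest cell of cluster 11 had 16 UMIs in steady state and 14 after GM-CSF, and the highest 866 and 1161, so that the cluster spanned a wide range.

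**Figure D1:**
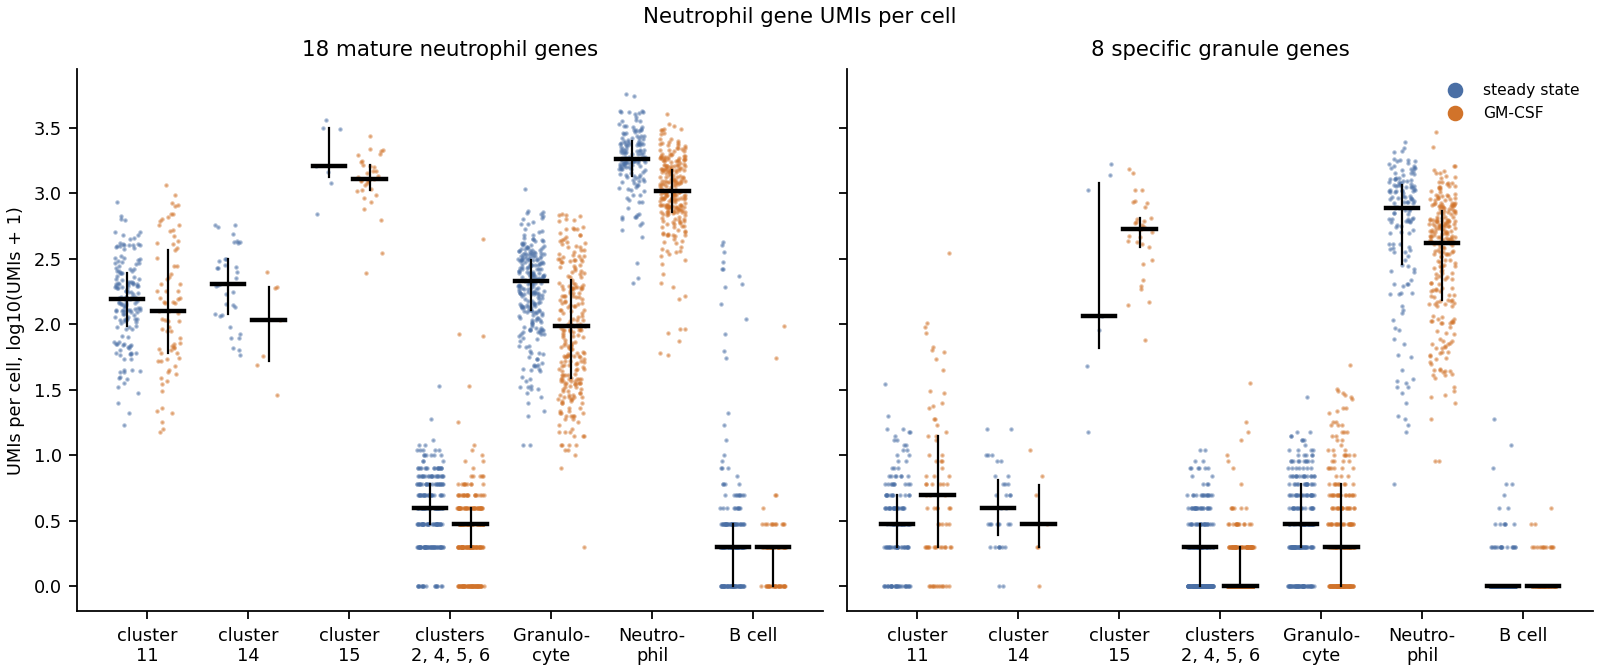
UMIs per cell summed over the mature neutrophil list (left) and the specific granule list (right), as log10(UMIs + 1), for clusters 11, 14 and 15, the monocyte-rich bundle clusters 2, 4, 5 and 6, and the deposited Granulocyte, Neutrophil and B cells. Points are cells (a random draw in large groups), the black bar is the median and the line the quartiles, in blue for steady state and orange for GM-CSF. Clusters 11 and 14 (medians 156 and 204 in steady state) sit beside Granulocyte cells (212) and cluster 15 (1622) beside Neutrophil cells (1840) for the mature list.

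The specific granule list set cluster 15 apart from clusters 11 and 14. Its 8 genes gave a median of 2 UMIs per cell in cluster 11 and 3 in cluster 14 in steady state, and 4 and 2 after GM-CSF, while Granulocyte cells had 2 and 1. Cluster 15 had a median of 115 in steady state, over 7 cells that ranged from 14 to 1673, and of 531 after GM-CSF, over 33 cells. Neutrophil cells had medians of 776.5 and 421. Camp, the cathelicidin, averaged 213 UMIs per cell in cluster 15 after GM-CSF and 184 in Neutrophil cells. Ltf, lactoferrin, averaged 76.2 and 64.4, and Ngp, neutrophilic granule protein, 159 and 151. Ltf in steady state averaged 0.0255 UMIs per cell in cluster 11 and 0.0286 in cluster 14, and after GM-CSF 0.675 and 0. Of the 52 Ltf UMIs of cluster 11 after GM-CSF, 39 lay in 1 cell, and 11 cells had any.

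Per cell, cluster 11 in the GM-CSF library carried more Ltf, Camp, Ngp, Lcn2, Cd177 and Mmp8 than the Granulocyte cells. As CPM, with the other bundle clusters taken off, Ltf, Camp and Ngp stood above the Granulocyte level. Lcn2, Cd177 and Mmp8 stood below it, at 51.4, 74.3 and 47.8%. Camp was at 281 CPM in cluster 11, against 65.5 in Granulocyte cells. Of its 154 UMIs 109 lay in 1 cell, with 19 of 77 cells having any. Ngp averaged 4.48 UMIs per cell against 0.562. Most of the 5 primary granule genes had few or no UMIs in the clusters. Elane and Mpo, the enzymes neutrophil elastase and myeloperoxidase, had 0 UMIs in all 3 clusters in both libraries. Neutrophil cells averaged 4.58 and 2.51 UMIs of Elane per cell, found in 3.42 and 3.58% of those cells. Ms4a3, another gene of granulocyte precursors, did appear in cluster 15, with 3 UMIs in 7 cells in steady state and 9 UMIs in 33 cells after GM-CSF, which was 42.6 and 30.1% of the Neutrophil level once the other bundle clusters were taken off. With 3 counts allowed, cluster 15 could hold up to 25.9 CPM of a gene at 0 in steady state and 7.64 CPM after GM-CSF.

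The genes with the largest ratios to the other bundle clusters, both libraries summed, are given next. Of cluster 14, 35 of 42 cells came from the steady-state library, of cluster 15, 33 of 40 from the GM-CSF library, and of the other bundle clusters 1936 of 5759 from the steady-state library, so these ratios mix library with cluster. Cluster 11 was led by Cxcr2 (114-fold, 97.0 to 134), Asprv1, a skin and neutrophil protease, Il1f9, Nlrp12, Retnlg, Chil1, Mmp9, Arg2, Stfa2l1 and Hdc. Cluster 14 was led by Cxcr2 (113-fold), Hdc, Lrg1, Mmp9, S100a9, Retnlg, Slc40a1, S100a8, Ccr1 and Il1b. Cluster 15 was led by Orm1, which had 2 UMIs outside the cluster, then Camp (984-fold), Ngp (718-fold), Ltf (633-fold), Itgb2l, Ly6g, S100a9 (279-fold), Ceacam10, S100a8 and Lcn2. Set against Granulocyte cells instead, the 3 clusters together were led by genes that Granulocyte cells lacked or nearly lacked. 9530059O14Rik, Tnfsf12, Arhgap6, Mycl, Rgs12, Csrp1, Ivd and Endod1 had 0 UMIs in all 3720 Granulocyte cells and 50 to 67 UMIs in the 316 cells. Rnd3 had 142 UMIs against 1, and Mgl2, which encodes the CD301b lectin, 218 against 2.

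**Figure D2:**
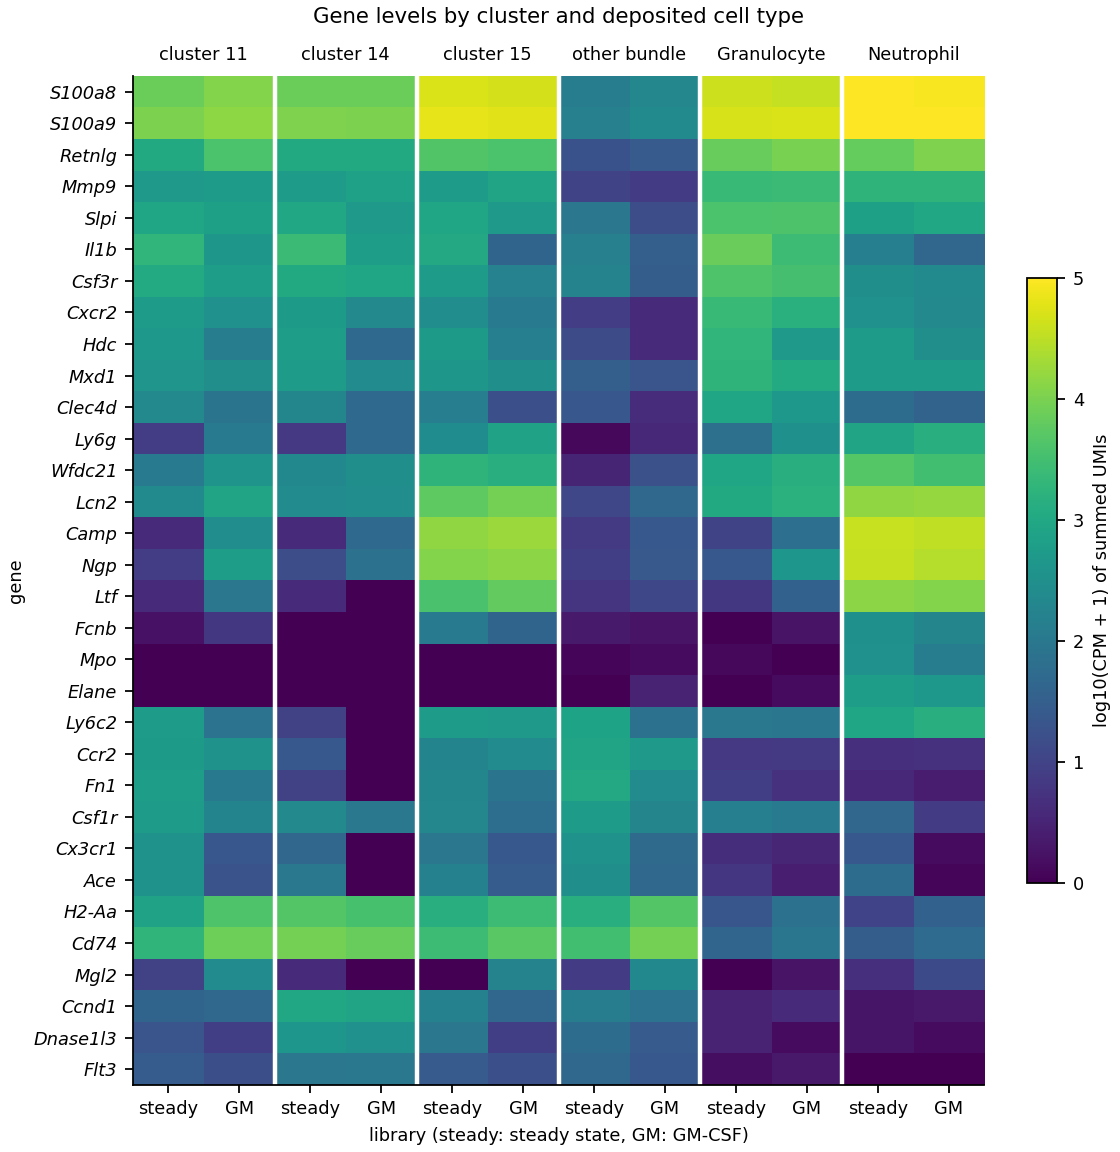
Heat map of log10(CPM + 1) of summed UMIs of named genes (rows) in clusters 11, 14 and 15, the other bundle clusters and the deposited Granulocyte and Neutrophil cells, each by library (columns). The upper rows are neutrophil genes, with Camp, Ngp and Ltf bright in cluster 15 and Neutrophil cells and Elane and Mpo at 0 in all 3 clusters, and the lower rows are monocyte and DC genes, with H2-Aa and Cd74 bright in cluster 14 and after GM-CSF.

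Monocyte and DC genes were present in the same droplets. Cluster 11 in steady state had 4.31 UMIs per cell of Ccr2, the receptor with which monocytes leave the marrow, against 5.71 in the other bundle clusters and 0.0109 in Granulocyte cells. Csf1r, the receptor for M-CSF, averaged 4.68 UMIs per cell in cluster 11, 3.85 in the other bundle clusters and 0.271 in Granulocyte cells. Fn1, fibronectin, averaged 4.97, 7.15 and 0.0145. After GM-CSF cluster 11 had 30.0 UMIs per cell of H2-Aa, an MHC II chain, the other bundle clusters 30.8 and Granulocyte cells 0.0966. The MHC II invariant chain Cd74 averaged 57.3, 60.5 and 0.122 in the same groups.

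Cluster 14 had the genes of DCs and, at a lower level, those of classical monocytes. Its classical monocyte list was at 0.172 times (interval 0.157 to 0.188) the CPM of the other bundle clusters in steady state and 0.404 times (0.307 to 0.523) after GM-CSF. It had 45.3 UMIs per cell of H2-Aa and 89.1 of Cd74 in steady state. Ccnd1, a cyclin, and Dnase1l3, a DNase of DCs, are on the study's list for clusters 9, 12 and 14, and cluster 14 had 955 and 431 CPM of them in steady state and 813 and 330.4 after GM-CSF. Cluster 11 had 39.4 CPM of Ccnd1 and 19.7 of Dnase1l3 in steady state. Ly6c2, which encodes the Ly6C protein of classical monocytes, was at 8.68 CPM in cluster 14 and 549 in cluster 11 in steady state. Of the 10 genes on the study's list for clusters 9, 12 and 14, 1 was at least 2-fold higher in the 3 clusters together in both libraries. Of all genes compared, 3.52% (steady state) and 5.17% (GM-CSF) were. That gene was Ltb, a lymphotoxin subunit, which was also present in Granulocyte cells (736 CPM in steady state).

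As a share of all UMIs, the classical monocyte list was lower in the clusters than outside them, at 0.614 times (0.601 to 0.628) in steady state and 0.698 times (0.671 to 0.726) after GM-CSF. Of the 8 classical monocyte genes, 4 were at least 2-fold lower in steady state (Ccr2, F13a1, Fn1 and Vcan) and 0 higher, where 4.11% of all genes were lower. After GM-CSF 3 were lower (F13a1, Fn1 and Vcan) and 1 higher (Ly6c2), where 7.3% of all genes were lower. Ly6c2 after GM-CSF was highest in cluster 15, at 6.03 UMIs per cell, beside 7.40 in Neutrophil cells and 0.485 in the other bundle clusters. The non-classical monocyte list was at 0.979 times the other bundle clusters in steady state and at 1.14 times (1.10 to 1.18) in cluster 11 alone. None of its 8 genes passed 2-fold in steady state, and 3 were lower after GM-CSF (Ace, Cx3cr1 and Eno3). Cycling genes were lower for 6 of 8 in steady state and 8 of 8 after GM-CSF, and cluster 15 in steady state went the other way, with a cycling list at 2.46 times (2.05 to 2.92) the other bundle clusters. Cells called in S or G2/M phase were 3.52 and 10.3% of the clusters, against 26.1 and 36.8% of the other bundle cells.

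Of the inflammatory list 5 of 10 genes were at least 2-fold higher in steady state (Il1b, Cxcl2, Il1rn, Ptgs2 and Nlrp3) and 4 of 10 after GM-CSF, where 3.52 and 5.17% of all genes were. The summed list was at 0.999 times (0.843 to 1.18) the other bundle clusters in cluster 15 after GM-CSF. Il1b averaged 15.9 UMIs per cell in cluster 11 and 25.6 in cluster 14 in steady state, beside 13.8 in Granulocyte cells and 1.02 in the other bundle clusters. Cluster 15 averaged 17.1 UMIs of Il1b, of which 86 of 120 lay in 1 cell, beside 1.06 in Neutrophil cells. Genes of other lineages had few UMIs. The summed B cell, T cell, NK cell and eosinophil lists were at 22.5, 12.7, 7.51 and 11.6 CPM in the clusters in steady state and at 3.06, 8.15, 2.04 and 11.2 CPM after GM-CSF. Basophil genes had 0 UMIs, and the erythroid list was at 90.1 and 1.02 CPM. Some of these lists stood above the other bundle clusters all the same. The T cell list in cluster 15 was 14.7 times (7.55 to 26.2) their level in steady state, on 13 UMIs with each of its detected genes in 1 cell, and 21.3 times (8.29 to 48.6) after GM-CSF, on 8 UMIs, all of Cd3d, which also averaged 0.197 UMIs in Neutrophil cells. The eosinophil list was 8.04 times (4.07 to 15.9) their level in the 3 clusters in steady state.

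The amounts per droplet were also given as percents of a neutrophilic label, Granulocyte for clusters 11 and 14 and Neutrophil for cluster 15. After the mean of the other bundle clusters was taken off, S100a8 in cluster 11 stood at 75.2% of its mean in Granulocyte cells in steady state, Cxcr2 at 103% and Csf3r at 101%. In cluster 14 S100a9 stood at 108%. Over the 22 listed neutrophil genes with enough UMIs the median was 84.8% in cluster 11 and 116% in cluster 14 in steady state. After GM-CSF the medians over 24 genes were 138 and 62.3%. Cluster 15, set against Neutrophil cells, had a median of 84.5% in steady state and 101% after GM-CSF over 31 genes. In that cluster after GM-CSF S100a8 was at 114%, Camp at 116%, Ngp at 105% and Ltf at 118% of the Neutrophil mean. The percents varied among genes, with quartiles of 60.5 and 98.2% in cluster 11 in steady state and 73.6 and 117% in cluster 15 after GM-CSF. Single genes ranged from -180 to 113% in cluster 11 and from -490 to 235% in cluster 14 in steady state. After GM-CSF they ranged from 83.1 to 2087% in cluster 11 and from -2.84 to 146% in cluster 15.

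Median total UMIs were also higher than in bundle cells of the same label in most groups. Steady-state cluster 11 cells labelled MoMacDC_c1 had a median of 8730.5 UMIs, other MoMacDC_c1 cells 7250.0, and Granulocyte cells 1770.0. Those labelled MoMacDC_c5 had 5716 against 3615.5. Cluster 14 cells labelled Progenitor DC had 8399 against 6614.5. After GM-CSF, cluster 11 cells labelled MoMacDC_c2 had 7759 and cluster 15 cells of that label 11823.5, against 6379 in the rest of the label and 4404 in Neutrophil cells. The 7 GM-CSF cells of cluster 14 went against this, with 5187 UMIs beside 7231 in other Progenitor DC cells. The median share of mitochondrial UMIs was 2.61 and 3.61% in the clusters, 3.47 and 4.57% in the other bundle clusters, and 0.315 and 0.519% in Granulocyte cells.

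The mean profile of each cluster was then set beside the mean of bundle cells with the same labels and beside that mean plus the mean of 1 Granulocyte cell (clusters 11 and 14) or 1 Neutrophil cell (cluster 15), with no fitted factor. In steady state, 3870 of 3873 genes (99.9%) of cluster 11 lay within 2-fold of the sum, 92.5% within 2-fold of the bundle cells alone and 8.70% within 2-fold of Granulocyte cells alone. After GM-CSF cluster 11 had 99.6% within 2-fold of the sum and 92.8% of the bundle cells alone. Cluster 14 had 99.2 and 81.4% in steady state. Cluster 15 had 95.2 and 52.8% in steady state and 99.9 and 68.0% after GM-CSF. For the 7 GM-CSF cells of cluster 14 the sum came out lower, with 79.8% of 114 genes, than the bundle cells alone, with 85.1%, and these cells had 62.6% of the summed UMIs. In the other clusters the UMIs per cell were 93.4 to 108% of the sum.

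Genes at least 5-fold higher in the neutrophilic cell than in the bundle label were then taken alone. There were 59 of them in cluster 11 in steady state, with a median of 98.2% of the sum. In cluster 14 there were 34 with a median of 126%, and in cluster 15 after GM-CSF 74 with a median of 109%. None of them lay within 2-fold of the bundle cells alone in any cluster. The choice of these genes, in clusters made from neutrophil transcripts, largely set that outcome beforehand, so it is no test. The genes in this comparison had at least 50 UMIs in the cluster, which leaves out genes that were lower there. Chosen by the sum instead, 3883 of 3887 genes of cluster 11 in steady state and 990 of 996 of cluster 15 after GM-CSF lay within 2-fold. In cluster 11 in steady state the 4 below were Jchain, Thbs1, Mzb1 and Stx3, and the 6 in cluster 15 after GM-CSF included Elane and Prtn3, all named after their values were seen.

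**Figure D3:**
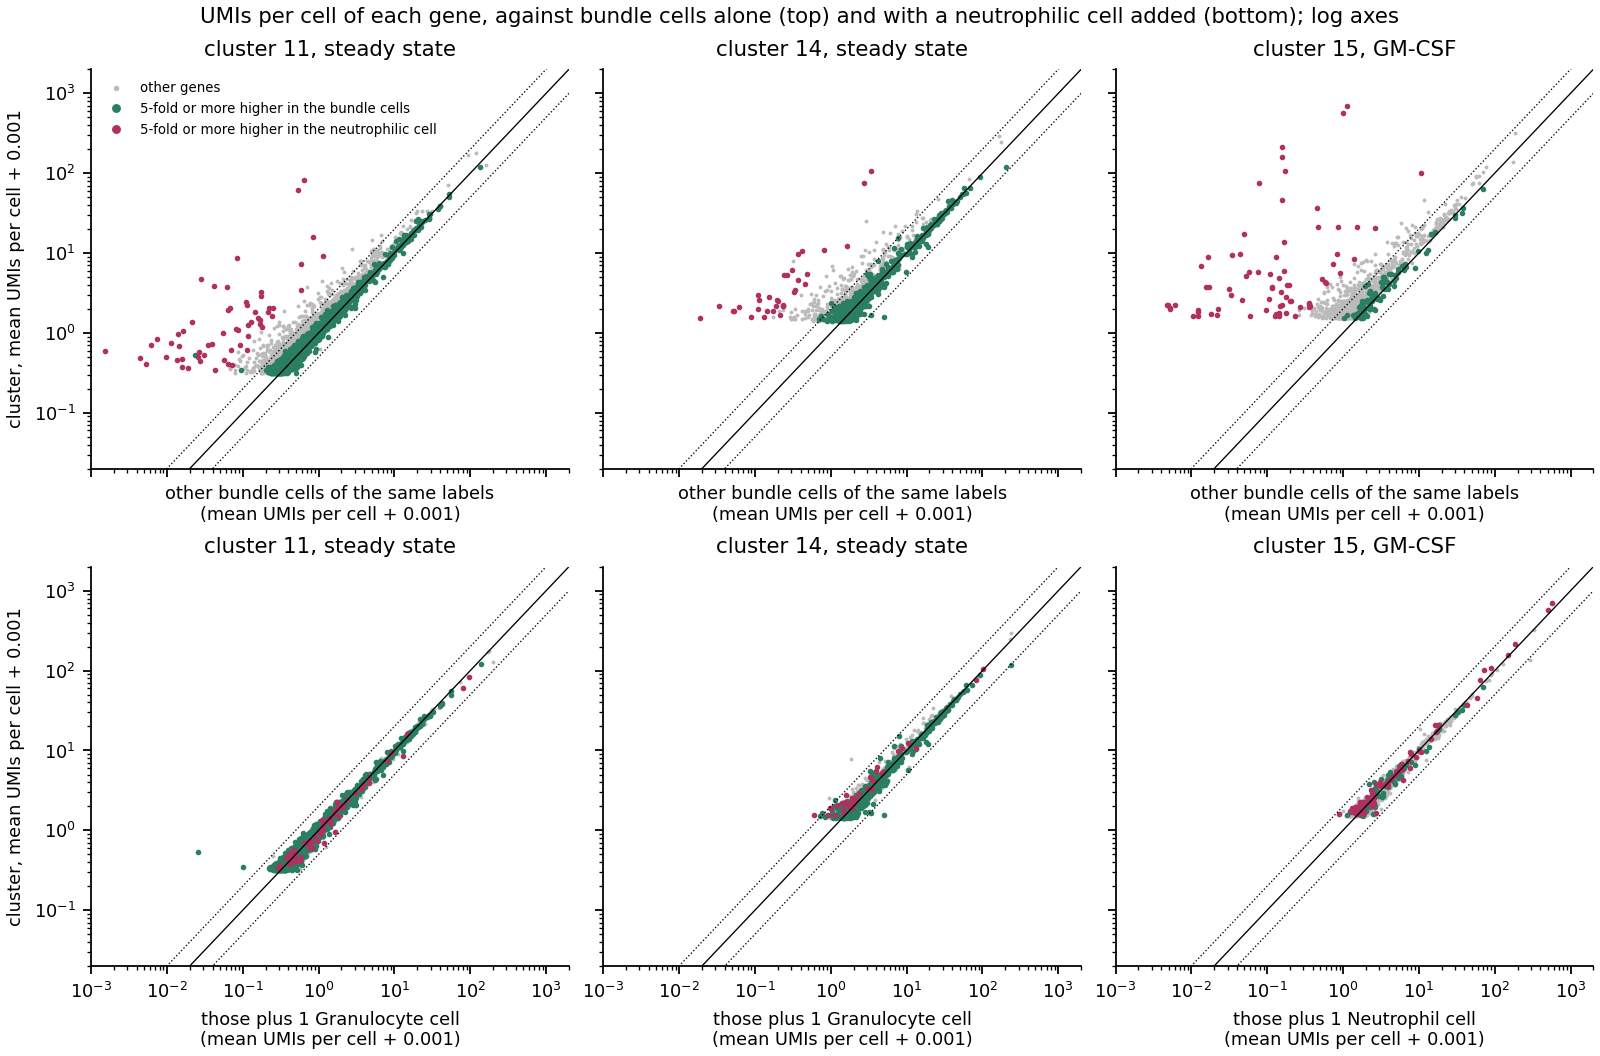
Mean UMIs per cell of each gene (points, log axes, 0.001 added) in cluster 11 in steady state, cluster 14 in steady state and cluster 15 after GM-CSF, against bundle cells of the same labels alone (top) and against those plus 1 Granulocyte or Neutrophil cell (bottom). Colours mark genes at least 5-fold higher in the neutrophilic cell, at least 5-fold higher in the bundle cells, or neither. The neutrophilic genes lie above the diagonal in the top row and along it in the bottom row, with medians of 98.2, 126 and 109% of the sum.

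Few genes were at least 2-fold above both the bundle label and the neutrophilic label. Cluster 11 had 2 of 3873 in steady state (0.0516%), Cxcl9 and Hbb-bs, an interferon-induced chemokine and a globin. Of the Cxcl9 UMIs 48 of 54, and of the Hbb-bs UMIs 76 of 84, lay in 1 cell. After GM-CSF it had 2 of 1783 (0.112%), Camp and Ltf, and 39 of the 52 Ltf UMIs lay in 1 cell. Cluster 14 had 0 of 1075 and 0 of 114 genes. Cluster 15 had 2 of 290 in steady state (0.69%), Stk17b and Il1b, over 7 cells, and 0 of 1008 after GM-CSF.

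The surface tags were not used in making the RNA clusters. Ly6C, a protein found on classical monocytes and on neutrophils, had a median tag count of 231 (95% interval of the median 197 to 280) on the 29 steady-state cluster 14 cells labelled Progenitor DC. The other Progenitor DC cells had 31, Granulocyte cells 176, and both added up to 207. Cells labelled MoMacDC_c5 in cluster 11 had 214.5 (200 to 242) beside 31 on the rest of that label. After GM-CSF, cluster 11 cells labelled MoMacDC_c2 had 93 (79 to 108) beside 14 on the rest and 82 on Granulocyte cells, and cluster 15 cells of that label 169 (138 to 238) beside 140 on Neutrophil cells. Steady-state MoMacDC_c1 cells, whose own Ly6C was high at 928.5, had 891 (779 to 1053) in cluster 11, against a sum of 1104.5. After GM-CSF the MoMacDC_c1 cells of cluster 11 had 124 (96 to 182), beside 45 on the rest of the label and a sum of 127. The tag was therefore near the label in steady-state MoMacDC_c1, and nearer the sum in these other groups.

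The other tags differed from the label by amounts that varied with the group. In steady-state MoMacDC_c2, 17 cells of clusters 11 and 14 had a median CD11c count of 302 and MHC II count of 1155, beside 65 and 348 on the rest of the label. In steady-state MoMacDC_c1, cluster 11 cells had 8.5 counts of CD11c and 19 of MHC II, beside 3 and 9. The Progenitor DC cells of cluster 14 in steady state had a median CD11c count of 416 and MHC II count of 1226, beside 375 and 992.5 on the rest of the label and 2 and 5 on Granulocyte cells. After GM-CSF the MoMacDC_c2 cells of cluster 11 had 47.5 counts of CD115, the M-CSF receptor, beside 41 on the rest and 4 on Granulocyte cells. CD301b on those cells had a median of 89.5 beside 130, with quartiles of 25.3 and 336 in the cluster.

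**Figure D4:**
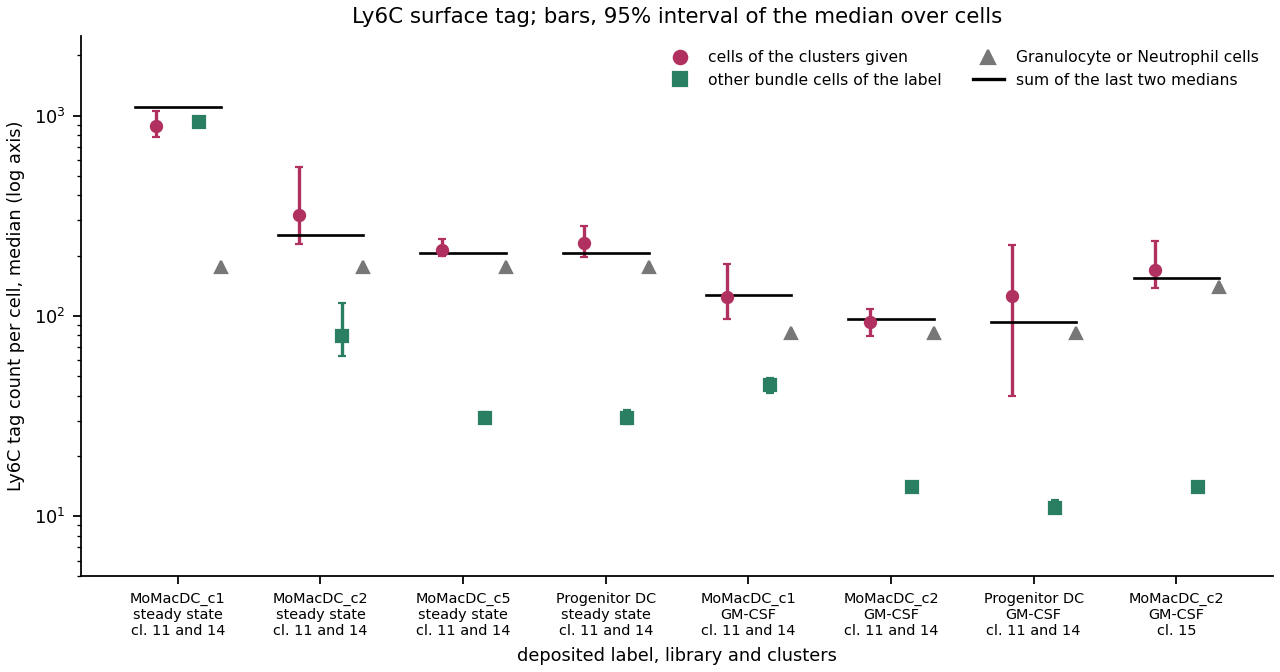
Median Ly6C tag count per cell (log axis) for cells of clusters 11 and 14 or 15 (circles), other bundle cells of the same deposited label (squares) and Granulocyte or Neutrophil cells (triangles), with black lines at the sum of the last 2 medians and bars for the 95% interval of the median over cells. In 7 of the 8 label and library groups the circle lies above the square and nearer the line than the square. In steady-state MoMacDC_c1 it lies at the square (891 beside 928.5). Steady-state MoMacDC_c2 cells (320 beside a sum of 255) and GM-CSF Progenitor DC cells (126.5 beside 93, over 8 cells) lie above the line.

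Both signals were counted in single cells at a matched depth. With each cell thinned to 1000 UMIs, 61.8% of the steady-state and 35.0% of the GM-CSF cells of the clusters had at least 3 UMIs of the mature neutrophil list and at least 3 of the classical monocyte list. The other bundle clusters had 2.03 and 0.797%, B cells 1.05 and 0%, T cells 0.578 and 0%, and Neutrophil cells 18.5 and 25.6%, which also express Ly6c2. Cluster 11 had 72.6 and 35.1%, cluster 15 had 57.1 and 36.4%, and cluster 14 had 14.3% (5 of 35) and 28.6% (2 of 7), so the steady-state value came mainly from cluster 11. Unthinned, 99.0 and 91.5% of the cluster cells passed the same limits, and 56.0 and 23.6% of the other bundle cells. Median depths were 8369 and 8095 UMIs in the clusters, 6823 and 6621 in the other bundle clusters and 2976.5 and 2741 in B cells. The 0 of 77 B cells with 1000 UMIs after GM-CSF allow a share of up to 3.90%. The limit planned at first was lower, at least 1 UMI of each list after thinning. There the shares were 88.9 and 79.5% in the clusters and 38.5 and 20.2% in the other bundle clusters. Neutrophil cells had 66.4 and 76.9%, Granulocyte cells 31.3 and 27.2%, and B cells 20 and 15.6% at that lower limit.

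High neutrophil counts also occurred, less often, in other cell types. At least 100 mature neutrophil UMIs were found in 152 of 199 and 82 of 117 cells of the clusters, and in 12 of 1936 and 15 of 3823 other bundle cells. In steady state 11 of 196 B cells and 8 of 174 T cells also had at least 100, and Scrublet, described below, called 8 of those B cells and all 8 of those T cells doublets. It called 78 of the 152 and 80 of the 82 cells of the clusters, 0 of the 12 steady-state other bundle cells, and 9 of the 15 after GM-CSF. After GM-CSF 0 of 79 B cells and 0 of 39 T cells did, which allows shares of up to 3.80 and 7.69%.

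Scrublet, which scores each cell by its likeness to simulated mixtures of the library's own cells, called 152 of 4827 steady-state cells (3.15%) and 186 of 6804 GM-CSF cells (2.73%). The 316 cells held 203 of the 338 calls (60.1%). In cluster 11, 91 of 157 (58.0%, 49.8 to 65.8) and 69 of 77 (89.6%, 80.6 to 95.4) were called. In cluster 15, 4 of 7 and 33 of 33 were called. Cluster 14 differed between the libraries, with 0 of 35 in steady state, which allows up to 8.57% by a limit of 3 counts and up to 10.0% by the exact interval, and 6 of 7 after GM-CSF. Of other bundle cells, 4 of 1936 and 61 of 3823 were called. The 104 steady-state cells that were not called kept a ratio of 37.3 in the summed level of the 9 printed genes over the other bundle clusters, and the 9 GM-CSF cells not called a ratio of 39.9. Scrublet reads the same neutrophil genes, so these ratios describe only the cells that remain. No doublet removal is described in the sources used here.

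**Figure D5:**
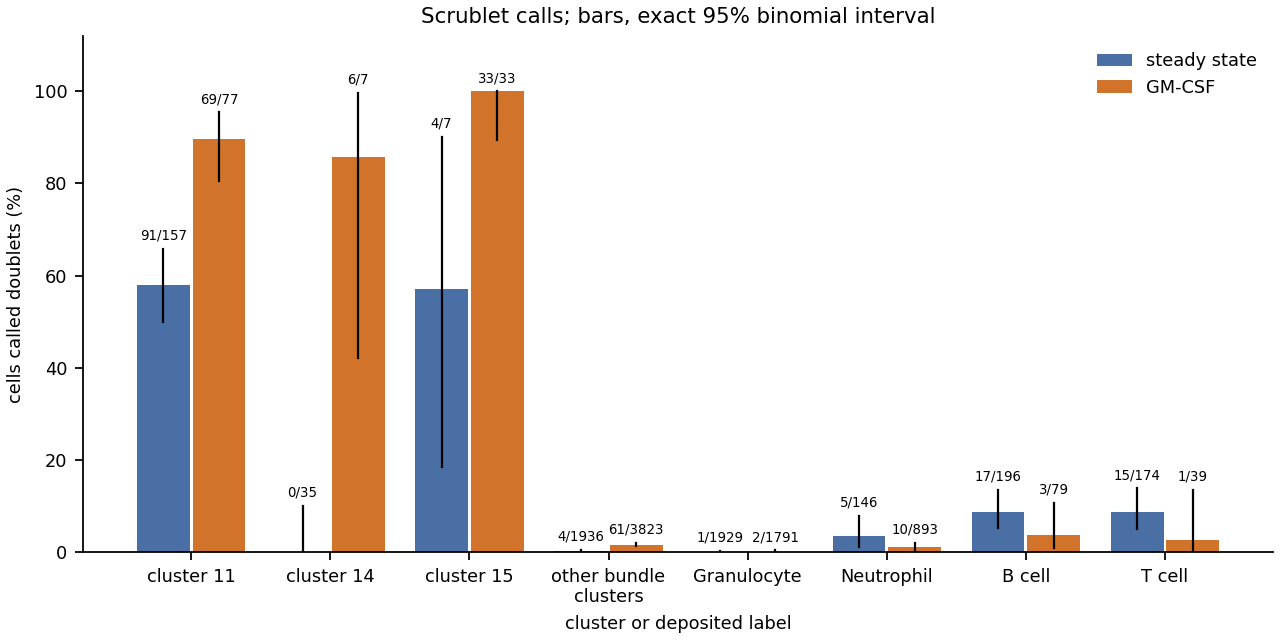
Share of cells that Scrublet called doublets (%, bars) in clusters 11, 14 and 15, other bundle clusters and deposited labels, in blue for steady state and orange for GM-CSF. Lines are exact 95% binomial intervals and the numbers are called cells of all cells. Cluster 15 after GM-CSF was called in 33 of 33 cells, cluster 14 in steady state in 0 of 35, and other bundle clusters in 4 of 1936 and 61 of 3823.

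The sizes of the clusters were set beside those of the neutrophilic labels. Cluster 15 was 0.0365 times the size of clusters 11 and 14 together in steady state and 0.393 times after GM-CSF, and the Neutrophil label was 0.0757 and 0.499 times the size of the Granulocyte label. Clusters 11 and 14 equalled 9.95 and 4.69% of the number of Granulocyte cells, and cluster 15 equalled 4.79 and 3.70% of the number of Neutrophil cells.

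Within the 3 clusters together, 260 of 5979 genes (4.35%) were at least 2-fold higher and 534 (8.93%) at least 2-fold lower after GM-CSF than in steady state. The mix of clusters changed between the libraries, with cluster 15 going from 7 to 33 cells. All 7 specific granule genes compared were higher, and so were Ly6g, Stfa3 and BC100530, genes of neutrophils, which ranked among the 10 highest ratios. BC100530 rose from 1 to 76 UMIs, a ratio of 134 with an interval of 23.4 to 5365. The mature neutrophil list was divided, with 5 of 18 higher (S100a8, S100a9, Retnlg, Wfdc21 and Ly6g) and 6 lower (Cxcr2, Csf3r, Hdc, Il1r2, Trem1 and Clec4d). Hdc in cluster 11 alone fell from 466 to 133 CPM, beside 1962 and 515 in Granulocyte cells.

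Monocyte and DC genes also differed between the libraries. Over all genes compared in the clusters, 4.35% were higher and 8.93% lower after GM-CSF. Of the MHC II list 6 of 8 genes were higher after GM-CSF (H2-Aa, H2-Ab1, H2-Eb1, Cd74, Ciita and Mgl2), and of the non-classical monocyte list 7 of 8 were lower. Mgl2 had 6.93 CPM in the clusters in steady state and 209.98 after GM-CSF, and the other bundle clusters had 218 CPM after GM-CSF. Htra3, a secreted protease, Plxdc2, Fgfr1, a growth factor receptor, Dok2, a signalling adaptor, Stmn1, a tubulin-binding protein of dividing cells, and Mgst2 completed the 10 highest. Cycling genes were higher for 6 of 7. The interferon list was lower for 8 of 8 genes, the inflammatory list for 7 of 9 and the immediate early list for 5 of 6.

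The 10 lowest ratios were those of Cd300e, Fabp4, Irg1, Cxcl9, Ccl5, Eno3, Hspa1b, Ptgs2, Hbb-bs and Apoe. Cd300e, a receptor of non-classical monocytes, had 163 UMIs in steady state and 0 after GM-CSF and was at least 30.8-fold lower with 3 counts allowed. Irg1, the enzyme that makes itaconate, went from 93 to 0 UMIs and was at least 17.6-fold lower. It stood at 190.2 CPM in Granulocyte cells and 2.19 CPM in the other bundle clusters in steady state, and at 8.29 and 0 CPM after GM-CSF. Apoe, which is high in non-classical monocytes, went from 1335 to 45.9 CPM, beside 1504 and 26.0 in the other bundle clusters and 165 and 61.7 in Granulocyte cells. Not all of the 260 higher and 534 lower genes had enough UMIs for comparison in other groups. Of the higher genes, 140 of 252 compared passed 2-fold the same way in the other bundle clusters. In Granulocyte cells 72 of 165 did, and in Neutrophil cells 32 of 192. Of the lower genes, the counts were 323 of 530, 94 of 441 and 61 of 372. These groups come from the same pair of libraries, so such counts are no independent support. The share of all genes past 2-fold in each of these groups is not given here. The counts therefore cannot be compared between groups, and where the differences came from was not tested.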

How the data were processed

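CITE-seq of CD11b+ splenocytes was deposited as 1 RNA and 1 tag library per condition. The deposited RNA and tag values are raw counts, which the authors made with Cell Ranger 3.0.2 (mm10) and CITE-seq-Count. They filtered cells on genes detected and on mitochondrial reads, which left 224 to 4972 genes per cell and a mitochondrial content, deposited in percent, of up to 15.0. The S and G2/M values are a deposited Seurat score that the authors used to call phases. Clusters and cell types are the authors' labels.

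Counts were summed over cells and given as CPM with exact Poisson intervals, ratios with exact binomial intervals and shares with Clopper-Pearson 95% intervals. A gene was called at a 2-fold difference with 0.5 counts added to each sum and at least 50 UMIs over the groups compared. Cells were thinned to 1000 UMIs with seed 20. Doublets were called per library by Scrublet in scanpy 1.11.5 with exact neighbours, and the 2-fold rule was tested on simulated data. Other tools were Python 3.11.15, numpy 2.4.6, pandas 2.3.3, scipy 1.17.1 and matplotlib 3.10.9. A count of 0 allows up to 3 counts. GENCODE on GRCm38 gave coordinates.

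The members and gene lists were chosen with earlier results of these data known, and the sum of profiles was added after values were seen. Named are the study's printed genes, the most abundant list members, the 10 largest ratios of each cluster and against Granulocyte cells, and the 10 highest and lowest ratios between libraries. Of the listed genes 3 were absent from the table (Ighm, Trac and Trbc2). The macrophage and the platelet list had 130 CPM (cluster 11) and 1.16 CPM (all 3 clusters) in steady state. Of the GM-CSF and G-CSF signalling list, 6 genes were compared in steady state and 8 after GM-CSF. In each library 1 of them, Csf3r, was at least 2-fold higher, where 3.52 and 5.17% of all genes were. Csf3r is also among the 9 genes printed for these clusters.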

Additional observations from a re-analysis of the deposited data

Results flagged for a closer look

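The following results went in opposite directions between clusters or cell groups when the GM-CSF library was set against the steady-state library. None of these differences was tested, since each condition had 1 library. The share of bundle cells changed by -1.91 on the log2 scale in cluster 11 and by -3.21 in cluster 14, and by 1.35 in cluster 15. The specific granule list, in CPM, changed by 0.35 (log2) in cluster 15 and by -0.21 in Neutrophil cells. Cxcl9 had 0 UMIs after GM-CSF in the 3 clusters and, with 3 counts allowed, changed by -3.35 (log2) or further, and it changed by 0.36 in the other bundle clusters. Hbb-bs changed by -5.00 (log2) in the 3 clusters and by 3.94 in the other bundle clusters. In steady state 1 cell of cluster 11 held 48 of the 54 Cxcl9 UMIs and 1 cell held 76 of the 84 Hbb-bs UMIs.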

How the results depend on the processing

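No paired analysis was possible because each condition had 1 library, and no replicate could be left out. With called doublets left out, the share of bundle cells was 5.11% in steady state and 0.239% after GM-CSF. In steady state 618 genes were then lower than in the other bundle clusters. After GM-CSF 2847 were then higher, beside 531 with all cells. Only 9 GM-CSF cells remained, 8 of cluster 11 and 1 of cluster 14. In so few cells the count added to each sum can lift a gene without a UMI past 2-fold. The 2847 is therefore no measure of raised genes. The ratio of the 9 printed genes was 37.3 and 39.9 with called doublets left out. It was 12.7 and 24.5 without S100a8 and S100a9, 51.1 and 61.9 against the monocyte-rich clusters 2, 4, 5 and 6, and, after GM-CSF, 101 as a mean over cells and 115 after thinning. In steady state, genes higher than in the other bundle clusters numbered 224 after thinning, 888 in cluster 14 and 1146 in cluster 15. After GM-CSF they numbered 813 with a minimum of 20 UMIs and 3891 in cluster 14. The 7 cells of cluster 14 held 39342 UMIs, against 26107621 in the other bundle clusters. At that depth the count added to each sum lifts a rare gene without a UMI in the cluster past 2-fold. The 3891 therefore takes in genes not detected in cluster 14 and is no measure of raised genes. The 7 steady-state cells of cluster 15 held 115998 UMIs, against 13222001 in the other bundle clusters. There 1 UMI can lift a rare gene past 2-fold, so the 1146 is no measure of raised genes either. Genes lower numbered 622 with the minimum of 20 UMIs, 1308 in cluster 14 and 1545 in cluster 15 in steady state, and 1553 in cluster 15 after GM-CSF. Between the libraries, 524 genes were higher with that minimum, 46 after thinning, 53 in cluster 14 and 92 in cluster 15, and 132, 160 and 115 were lower in the last 3 settings. Mature neutrophil UMIs per cell in cluster 11 were 193 and 242 as means, and 126 and 61 as medians without called doublets. The median percent of the Neutrophil instead of the Granulocyte level was 6.54 and 16.8 in cluster 11, 8.09 and 8.21 in cluster 14, and 84.5 and 101 in cluster 15. As CPM, the percent of the Granulocyte level was 19.8 and 26.0, 22.1 and 15.1, and 36.9 and 39.6 in the same order. Without called doublets, list CPM were 3402 and 1932 (classical monocyte), 2990.1 and 704 (non-classical), 13235 and 27469.7 (MHC II), and 767 and 759 (dendritic). With the 9 genes left out of the totals, they were 5349 and 2710.0 (classical), 2918 (non-classical, steady state), and 8535 and 19414 (MHC II). The share of cells with both signals, at least 1 UMI of each, was 88.9 and 79.5% thinned, 99.5 and 99.1% unthinned, and 61.8 and 35.0% with at least 3 UMIs. The highest 5% of doublet scores took in 80.3 and 97.4% of cluster 11 and 11.4% of steady-state cluster 14, and another random seed, chosen after seeing the data, called 49.7% of steady-state cluster 11. Without called doublets, the median percentile among bundle cells was 43.1 for CD115 after GM-CSF and 80.8, 42.2 and 79.6 for CD11c, Ly6C and MHC II in steady state. With the other neutrophilic label in the sum, also chosen later, the share within 2-fold was 91.1 and 93.4% in cluster 11, 91.0 and 37.7% in cluster 14, and 85.9 and 85.6% in cluster 15. The causes were not tested. The 7 cells of cluster 14 after GM-CSF and of cluster 15 in steady state limit what those values show.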
